A study of Mus musculus with 17 samples.

Results

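The Krüppel-like factors (KLFs) are a family of transcription factors that bind GC-rich and CACCC-type DNA elements through a carboxy-terminal array of zinc fingers. The 10 family members described here were chosen by gene symbol: Klf1, Klf2, Klf3, Klf4, Klf6, Klf7, Klf10, Klf11, Klf13 and Klf16. They are 10 of the 46880 genes listed in all 3 deposited count tables. KLF1 is the erythroid activator that switches on globin, heme and red cell membrane genes and is held in balance with megakaryocyte factors. KLF3 recruits the corepressor CtBP and is itself a KLF1 target, KLF10, KLF11, KLF13 and KLF16 recruit the SIN3 corepressor, and KLF10 and KLF11 are known as TGF-beta early response genes. KLF2, KLF4, KLF6 and KLF7 act mainly as activators, and KLF2 and KLF4 are abundant in monocytes and endothelium.

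RNA was sequenced from mouse fetal liver cells of E12.5 to E13.5 embryos, all from 1 mouse strain that expresses Cas9 and EGFP from the CAG promoter at the Rosa26 locus. In 14 of the 17 libraries the cells also carried sgGata1, a guide RNA against Gata1, and are named Gata1s cells after GATA1s, the truncated GATA1 protein. Their second transgene was LUC (luciferase, 3 libraries) or Arid3a (3 libraries) with doxycycline at 1 µg/mL for 48 h, or sh-ctrl (a control short hairpin, 3 libraries), shArid3a (a hairpin against Arid3a, 2 libraries, numbered 1 and 3) or miR-125b (3 libraries) with doxycycline at 1 µg/mL for 10 days. The 3 WT libraries carried sgLuc and shLuc and had no doxycycline. ARID3A is a transcription factor that the study links to megakaryocytes and to miR-125b, a microRNA encoded on human chromosome 21, and the comparisons ask what changes when its level is altered in Gata1s cells. The labels do not say whether replicates came from separate embryos or cultures, or whether the cells were a clone or a pool, so p-values measure only the spread between libraries. In these bulk samples, fewer cells of a type and less RNA per cell cannot be told apart.

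Library totals were 31339238 to 38678649 counts in the table of LUC and Arid3a, 31992089 to 40859301 in the table of sh-ctrl, shArid3a and miR-125b, and 16362439 to 19212193 in the WT table. No pair of replicates agreed within counting noise. The first replicate labelled Arid3a stood apart from the other replicates of its group: the chi-square of its counts per degree of freedom was 98.5 and 64.4 against them, and 14.6 between the other pair. Its summed mast cell and basophil markers (6 genes) were 162 CPM (read counts scaled to library size), against 2.19 and 37.9. The first miR-125b replicate likewise had 391 CPM of these markers, against 35.6 and 29.7. Results that turn on either library are given without it. Fetal liver's own cell markers were low or absent in the Gata1s cells: Alb (hepatocytes) was at most 0.146 CPM and Slc4a1 (mature erythroid cells) at most 0.0259 CPM in those groups, whereas megakaryocyte and platelet markers (8 genes) summed to 2272 to 4875 CPM.

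The label check came first. Arid3a itself was at 45.2, 56.3 and 57.2 CPM in sh-ctrl, 20.4 and 18.9 in shArid3a, and 7.14, 9.75 and 10.0 in miR-125b. Its log2 fold change was -1.43 with shArid3a (SE 0.20, adjusted p = 0.0368, edgeR) and -2.56 with miR-125b (SE 0.18, adjusted p = 0.000282, edgeR). The shArid3a call was lost when any of 4 of the 5 compared libraries was left out, with adjusted p up to 0.461, and when ribosomal RNA-like genes were removed (adjusted p = 0.0524, edgeR). In the libraries labelled Arid3a the gene was at 58.3, 74.3 and 80.1 CPM against 67.3, 64.0 and 70.2 in LUC, a log2 difference of 0.08 (SE 0.12, adjusted p = 0.737, edgeR), so the label is not borne out by the gene's total count. Those libraries are called the libraries labelled Arid3a below, and whether the transgene's reads can map to the counted gene is not stated.

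Several members carry sequence that miR-125b can pair with. The mature miRNA, encoded in the mouse genome on chromosomes 9 and 16, is printed here from RefSeq because its seed defines the matches counted below. The capitals mark the seed (bases 2 to 8), which 5 mature mouse miRNA names share.
mmu-miR-125b-5p: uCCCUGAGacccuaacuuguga
Matches were searched on the transcript strand of annotated 3′ untranslated regions (UTRs), as 8mer CTCAGGGA, 7mer-m8 CTCAGGG and 7mer-A1 TCAGGGA, the shorter ones counted only outside an 8mer. Of 11505 tested genes with a 3′ UTR, 5.92% held an 8mer and 24.0% held any of these matches. Among the 10 members, Klf1 and Klf13 held an 8mer, Klf16 both kinds of 7mer, and Klf3 and Klf7 a 7mer-A1. Klf2, Klf4, Klf6, Klf10 and Klf11 held none of these letters. The windows below, from the GRCm38 genome with the match in capitals, cover each 8mer and the single 7mers of the members with the largest declines under miR-125b; the Klf16 7mer-m8 is shown because Klf16 did not pass the test there.
Klf1 8mer, chr8:84905062-84905091, plus strand: ttcaggacaaacctcacatgtcCTCAGGGA
Klf13 8mer, chr7:63891252-63891281, minus strand: tcccccaccccaccccccctttCTCAGGGA
Klf3 7mer-A1, chr5:64830465-64830494, plus strand: tgaaaaatagagaaaaccacaatTCAGGGA
Klf7 7mer-A1, chr1:64032108-64032137, minus strand: tctctttctcctccacgtgacctTCAGGGA
Klf16 7mer-m8, chr10:80567829-80567858, minus strand: ggtccccttgtgtggccgtcatcCTCAGGG
A match is a description of letters and not evidence of a working site.

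Promoters were examined because KLFs bind CACCC elements, and GATA1 binds GATA elements, in promoters of this family. RefSeq promoters (GRCm38.p6, 250 bases before to 50 after the gene start) were found for 8 of the 10 members, not including Klf10 and Klf16. Both motifs were searched on both strands, CACCC (or GGGTG) and GATAA (or TTATC). The Klf1 and Klf3 promoters, which held the single GATAA match among these 8 and the most CACCC matches, are printed with the matches in capitals.
Klf1, chr8:84901732-84902031, plus strand: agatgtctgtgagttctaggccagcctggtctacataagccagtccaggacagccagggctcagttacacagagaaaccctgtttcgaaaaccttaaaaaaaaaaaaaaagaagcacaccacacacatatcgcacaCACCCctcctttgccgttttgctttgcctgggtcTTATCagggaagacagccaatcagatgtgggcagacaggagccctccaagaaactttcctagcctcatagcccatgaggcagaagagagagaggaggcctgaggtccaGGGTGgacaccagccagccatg
Klf3, chr5:64803271-64803570, plus strand: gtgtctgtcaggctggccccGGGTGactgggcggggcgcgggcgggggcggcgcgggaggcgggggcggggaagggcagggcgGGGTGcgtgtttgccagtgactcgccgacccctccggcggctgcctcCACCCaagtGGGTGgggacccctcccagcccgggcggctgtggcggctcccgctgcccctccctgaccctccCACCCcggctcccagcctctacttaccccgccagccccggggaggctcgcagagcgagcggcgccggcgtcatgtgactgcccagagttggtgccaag
Klf1 held 2 CACCC matches and 1 GATAA match. Klf3 held 5 CACCC matches and no GATAA match. Klf7 held 3 CACCC matches, Klf2 and Klf13 1 each, and Klf4, Klf6 and Klf11 none. Of 32851 promoters of this length, 57.5% held at least 1 CACCC match, 9.35% held 3 or more, and 25.4% held at least 1 GATAA match. The counts in this study say nothing of what binds there.

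The members differed widely in level within a library, and their order differed between groups. To compare genes, CPM were divided by gene length (CPM per kb, on a scale common to the 17 libraries). In each of the 14 Gata1s libraries the most abundant member per kb was Klf1 or Klf16. Klf1 averaged 16.7 CPM per kb in LUC, 13.6 in the libraries labelled Arid3a, 19.5 in sh-ctrl, 33.4 in shArid3a and 10.9 in miR-125b. Klf16, whose product is a broadly expressed SP/KLF repressor, averaged 15.8, 15.3, 14.2, 16.1 and 12.1 CPM per kb in the same order. Klf1 and Klf16 exchanged first place between libraries of LUC, Arid3a, sh-ctrl and miR-125b, so their order within those groups is not separable from the spread. In both shArid3a libraries Klf1 came first. It made up 53.3% and 46.8% of the summed per-kb level of the 10 members there, against 29.3%, 24.0% and 40.9% in sh-ctrl. Below these came Klf6, Klf13 and Klf10 between 2.82 and 10.2 CPM per kb on group average, and the sum over the 10 members was lowest in miR-125b at 44.0, 27.5 and 29.9 CPM per kb, against 58.7, 54.0 and 69.5 in sh-ctrl.

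**Figure D1:**
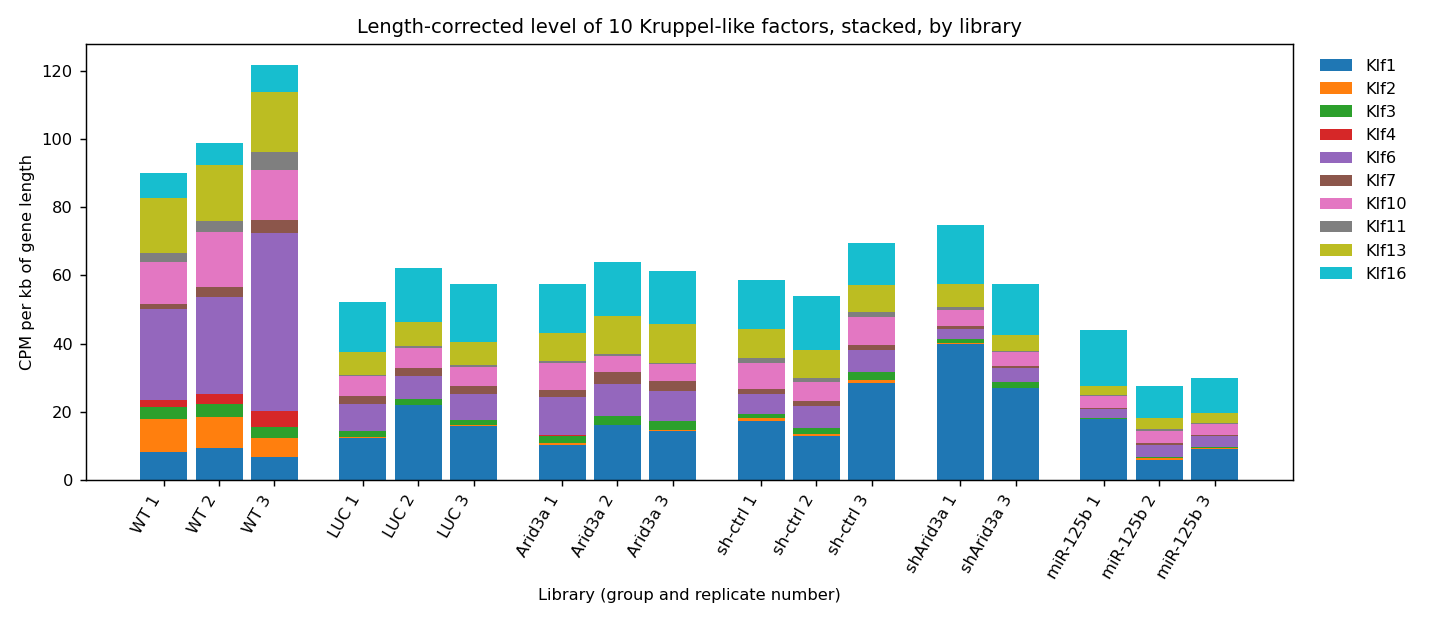
Stacked length-corrected levels (CPM per kb of gene length, y axis) of the 10 Krüppel-like factors in each of the 17 libraries (x axis, group and replicate number). Klf1 or Klf16 comes first in each Gata1s library and Klf6 in each WT library. The whole stack is smallest in miR-125b, where it sums to 27.5 to 44.0 CPM per kb.

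The WT libraries had another composition, given here as a description because guide, hairpin, doxycycline and table all change with WT and cannot be told apart. Klf6, an immediate-early activator, came first per kb in all 3 WT libraries, followed by Klf13 and Klf10, and the group means were 35.6, 16.7 and 14.3 CPM per kb. Klf2 was at 10.2 to 17.7 CPM in WT and at most 1.81 CPM in any other library. Klf4 was at 122, 201 and 315 counts in WT, and at 0 to 9 counts in each of the 14 other libraries, too few for the filter of the tests below. In all, 7 members (Klf2, Klf3, Klf4, Klf6, Klf10, Klf11 and Klf13) had every WT library above all 14 others, as did 21.8% of the 14366 genes with at least 1 CPM in some library. Klf16 was lower in every WT library than in all others, as were 17.8% of those genes, but not when library totals replaced the scaling by the trimmed mean of M-values (TMM). Marker lists moved in both directions. The summed myeloid markers (6 genes) were 10298 to 12527 CPM in WT and 8.57 to 183 CPM elsewhere. The macrophage markers (6 genes) were 126 to 140 CPM against 2.12 to 7.28 CPM. The mast cell and basophil sums and the endothelial sums (mostly Pecam1) were also higher in every WT library. The megakaryocyte and platelet sums were lower, at 892 to 1149 CPM in WT against 2272 to 4875 CPM. Erythroid, hepatocyte and stromal sums overlapped. Mpo, the defining neutrophil granule enzyme, was at 3324 to 3683 CPM in WT and 29.6 to 69.6 CPM in miR-125b. It was at most 7.98 CPM in the other groups. The part of these markers in the WT values was not tested.

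**Figure D2:**
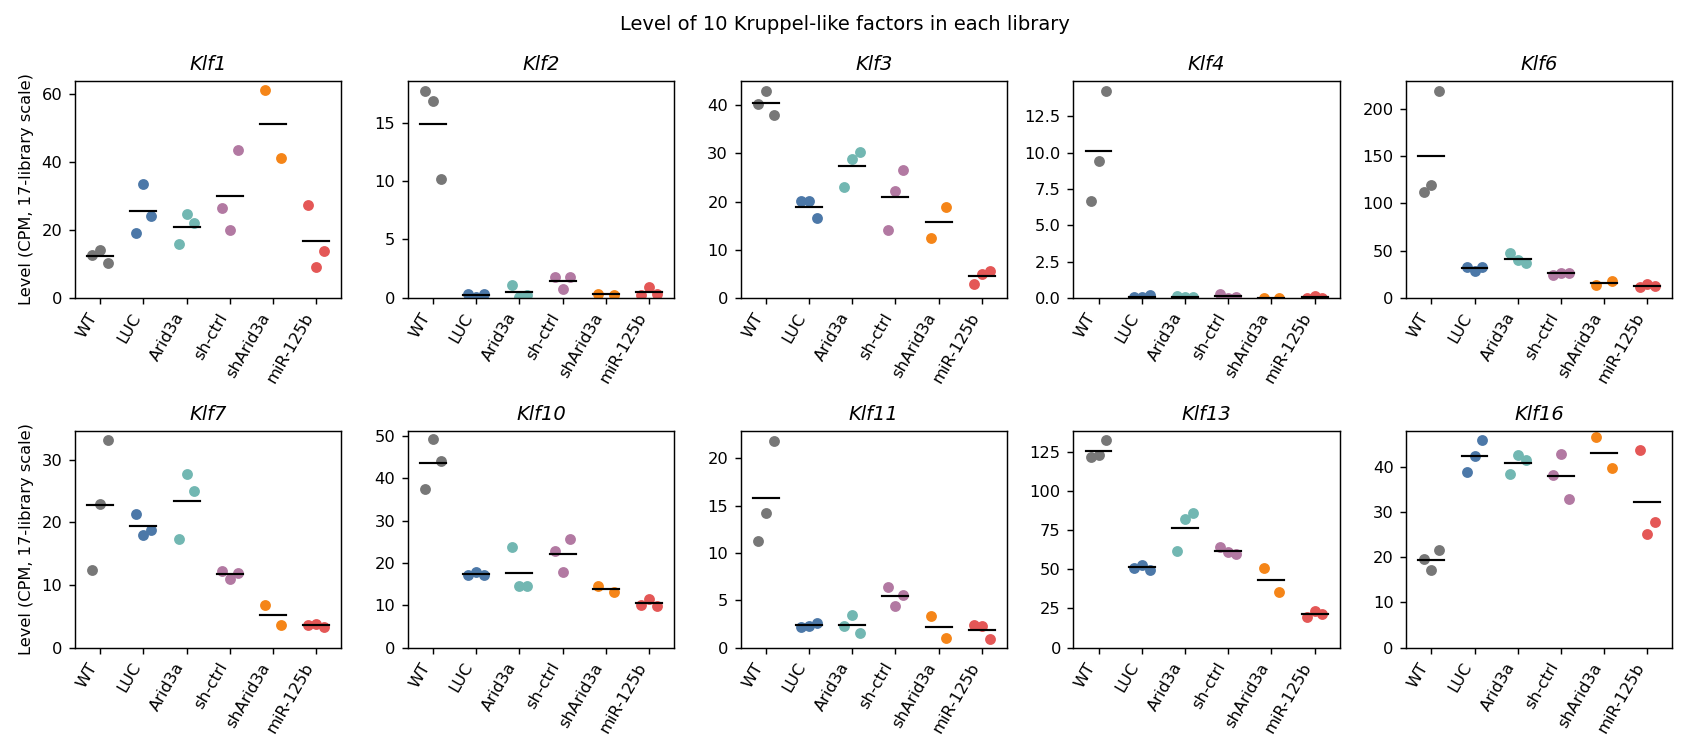
Level of each of the 10 genes in each library (points; CPM on the 17-library scale, y axis, which starts at 0 and differs between panels) by group (x axis), with group means as lines. Klf2 and Klf4 are near 0 outside WT. By group mean, Klf1 is highest in shArid3a, where the lower library lies within the sh-ctrl range. The means of Klf3, Klf6, Klf7, Klf10, Klf11 and Klf13 are lowest in miR-125b.

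The clearest changes came with miR-125b against sh-ctrl, both after 10 days of doxycycline. Of the 9 members tested, 6 fell and none rose at an adjusted p under 0.05 (edgeR quasi-likelihood test), where 24.4% of the 14004 genes tested were called and 12.2% were called lower. The 6 were Klf3, Klf6, Klf7, Klf10, Klf11 and Klf13, and in each of them every miR-125b library was below every sh-ctrl library, as in 23% of all genes. At an unadjusted p under 0.05 there were 7 members and 39.8% of genes. The median log2 fold change was -1.52 over the 9 members and -0.03 over all genes. The call of 5 of these 6 held in all 15 alternative analyses.

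Klf13 (ENSMUSG00000052040, GRCm38 chr7:63886351-63938915, minus strand), a regulator of GC-box promoters that has been reported as a miR-125b target, was at 58.4, 56.1 and 53.7 CPM in sh-ctrl and at 17.5, 20.6 and 19.1 CPM in miR-125b. The replicates lay close together and the groups far apart, a 2.94-fold difference. The log2 fold change was -1.56 (SE 0.16, adjusted p = 0.00158, edgeR). Its 8mer, printed above, starts at base 249 of a 3′ UTR of 5157 bases.

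Klf3 (ENSMUSG00000029178, chr5:64803388-64832901, plus strand), the CtBP-recruiting repressor, showed the largest fall of the members. It was at 12.7, 20.4 and 23.8 CPM in sh-ctrl and at 2.49, 4.49 and 4.95 CPM in miR-125b, with no overlap. Its log2 fold change was -2.25 (SE 0.33, adjusted p = 0.00529, edgeR). Klf3 carries only the 7mer-A1 match, at base 1330 of a UTR of 3743 bases. Klf3 overlaps 2 other annotated genes, 1 of them on the opposite strand, Klf7 overlaps 3 (2 on the opposite strand) and Klf13 overlaps 2, both on the opposite strand. Reads of such pairs cannot be told apart if strand was not used in counting.

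The activator gene Klf7 (ENSMUSG00000025959, chr1:64029447-64122282, minus strand) was at 11.1, 10.1 and 10.6 CPM in sh-ctrl and at 3.25, 3.38 and 3.03 CPM in miR-125b, close together within both groups and far apart between them. The log2 fold change was -1.72 (SE 0.29, adjusted p = 0.00648, edgeR). The TGF-beta early response gene Klf10 (ENSMUSG00000037465, chr15:38291463-38300706, minus strand) was at 20.7, 16.3 and 23.1 CPM against 8.92, 10.2 and 8.87 CPM, a log2 fold change of -1.10 (SE 0.20, adjusted p = 0.00778, edgeR). Klf10 has no seed match of the kinds searched, and neither has Klf6. Klf6 (ENSMUSG00000000078, chr13:5861482-5870394, plus strand) was at 22.2, 24.3 and 23.7 CPM in sh-ctrl and 9.85, 12.9 and 11.8 CPM in miR-125b, a log2 fold change of -1.03 (SE 0.19, adjusted p = 0.00791, edgeR). Klf11 (ENSMUSG00000020653, chr12:24651274-24662789, plus strand), the other TGF-beta response member, was the least secure of the 6. It was at 5.82, 4.07 and 4.96 CPM against 2.13, 2.02 and 0.859 CPM, with a log2 fold change of -1.57 (SE 0.49, adjusted p = 0.0410, edgeR), and its call was lost when any single library of the 6 was left out (adjusted p 0.0587 to 0.111).

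Klf1 (ENSMUSG00000054191, chr8:84901928-84905291, plus strand) varied widely between replicates. It was at 23.9, 18.2 and 39.1 CPM in sh-ctrl and 24.3, 7.95 and 12.6 CPM in miR-125b. The groups overlapped through the first miR-125b replicate, the library with the high mast cell and basophil markers. The log2 difference was -0.86 (SE 0.39, adjusted p = 0.131, edgeR), and without that replicate it was -1.40 (adjusted p = 0.0316, edgeR). With the replicate number as a block, Klf1 fell by 0.97 on the log2 scale (adjusted p = 0.0305, edgeR), and Gata1 was called as well, at -0.47 (adjusted p = 0.0460, edgeR). Over the 15 alternatives the Klf1 log2 difference ranged from -1.40 to -0.51 and was called in 3. Gata1 was called in 1 of 15. Klf16 was at 34.7, 39.2 and 29.6 CPM against 39.1, 22.4 and 25.1 CPM, a log2 difference of -0.26 (SE 0.21, adjusted p = 0.398, edgeR). The groups overlapped only through the first miR-125b replicate. Over the 15 alternatives, which include leaving it out, the Klf16 log2 difference ranged from -0.54 to -0.11 and was called in 0. Klf2 was low throughout, at 1.64, 0.733 and 1.59 CPM against 0.223, 0.817 and 0.329 CPM (log2 difference -1.52, SE 0.61, adjusted p = 0.0910, edgeR). Without miR-125b replicate 2, its highest miR-125b library, Klf2 was at -2.24 (adjusted p = 0.0476, edgeR). Klf2 was called in 1 of 14 alternatives.

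Seed matches are set beside the calls of the main fit here, and whether miR-125b acts through them was not tested. Of the 6 called members, 3 carried a match (Klf13, Klf3 and Klf7) and 3 did not (Klf6, Klf10 and Klf11). Klf1, with an 8mer in its UTR of 352 bases, and Klf16, with 2 7mers, were not called in that fit. Klf1 was called in 3 of 15 alternatives, among them the replicate block and the fit without the first miR-125b replicate, as given above. Over all tested genes with a 3′ UTR, 25.8% of the 681 with an 8mer were called lower, against 12.52% of the 10824 without one, with median log2 fold changes of -0.29 and -0.01. Genes with and without an 8mer were not matched for gene or UTR length. Gene length moved with the calls, as the next paragraph gives, so this contrast cannot be assigned to the seed match.

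Gene length moved with these differences. Among protein-coding genes of 7000 bases or more, 27.5% were called lower with miR-125b and 3.64% higher, and the median log2 fold change was -0.37. Among those under 2000 bases, 3.55% were called lower and 33.4% higher, with a median of 0.42. Klf3 (11243 bases), Klf7 (8131) and Klf13 (7531) are among the long genes, whereas Klf10 has 3045 bases. With an offset for each library's trend on gene length, an alternative chosen after the data were seen, the log2 fold changes were -1.86 for Klf3, -1.40 for Klf7, -1.26 for Klf13, -1.14 for Klf10 and -0.95 for Klf6 (adjusted p between 0.00209 and 0.0106, edgeR), and 5 members were called. Klf11 was then at -1.48 (adjusted p = 0.0577, edgeR). The counts of 8 ribosomal RNA-like genes made up 0.237% to 0.337% of the miR-125b libraries, 0.302% and 0.318% of the shArid3a libraries and 0.0388% to 0.0697% of the sh-ctrl libraries; all 6 calls held when those genes were left out.

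**Figure D3:**
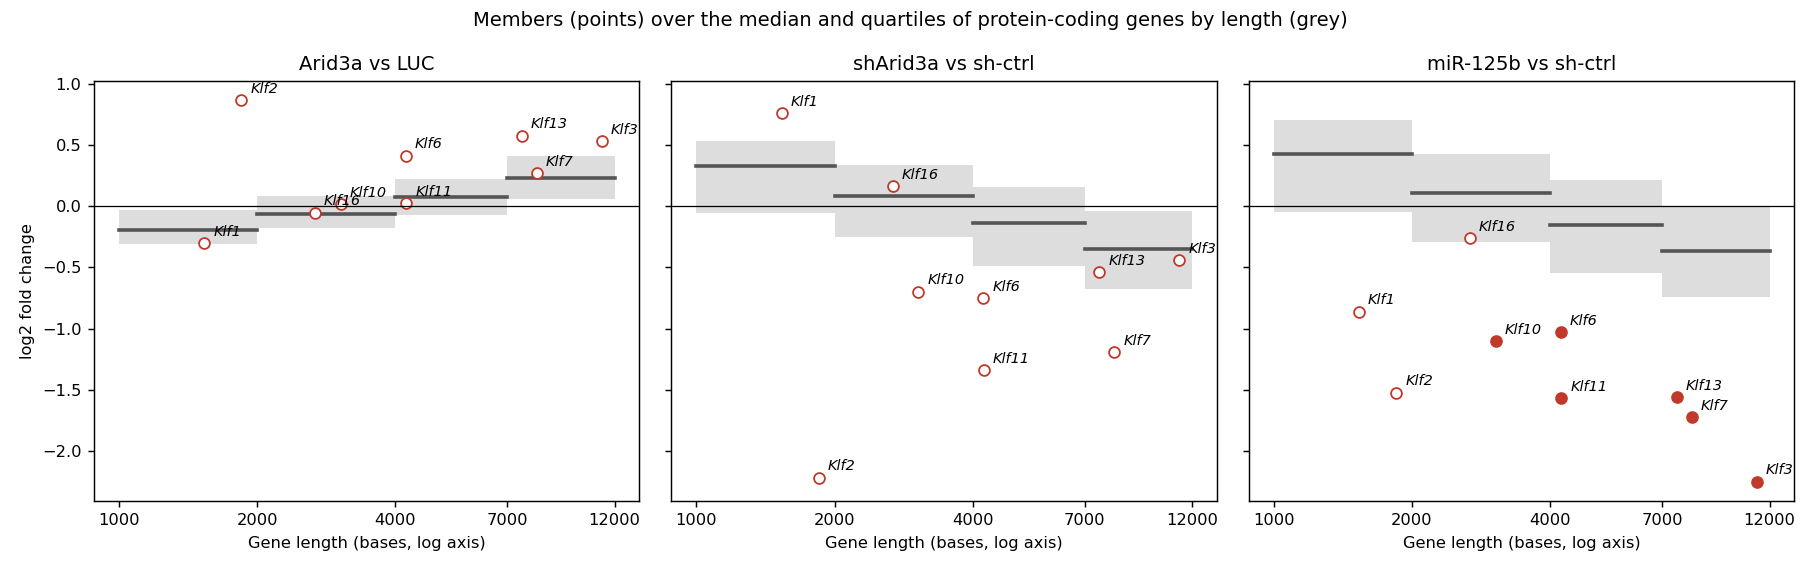
log2 fold change (y axis) of the 9 tested members against gene length (x axis, bases, log scale) in 3 comparisons; filled points have an adjusted p under 0.05. Grey lines and bands are the median and quartiles of protein-coding genes under 2000, 2000 to under 4000, 4000 to under 7000 and 7000 or more bases, the outer bins being drawn only to the edge of the axis. With miR-125b the 6 called members lie below the quartile band of their own length.

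Markers of other cells in this comparison were as follows. The erythroid markers (7 genes measured of 8) summed to 285 to 560 CPM in sh-ctrl and 132 to 164 CPM in miR-125b, the myeloid markers to 60.6 to 113 CPM and 99.9 to 183 CPM, and the megakaryocyte and platelet markers to 3052 to 4875 CPM and 3155 to 4005 CPM. The myeloid sums rest largely on Prtn3, and Mpo was at 29.6 to 69.6 CPM in miR-125b and at 0 to 0.622 CPM in sh-ctrl. The mast cell and basophil markers summed to 5.56 to 67.1 CPM in sh-ctrl and 29.7 to 391 CPM in miR-125b, and the endothelial markers (5 genes) to 149 to 161 CPM and 121 to 137 CPM. The endothelial sums were nearly all Pecam1, at 148 to 159 CPM in sh-ctrl and 120 to 136 CPM in miR-125b. Cdh5 and Emcn, of the same list, were at 0 in both groups. The erythroid and endothelial sums and Mpo did not overlap between the groups, while Slc4a1 was at 0 in all 6 libraries. Their part in the fall of the members was not tested.

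Knockdown of Arid3a without the miRNA gave no called member. The comparison of shArid3a with sh-ctrl uses the same sh-ctrl libraries as above, so the values are set side by side and are not independent. Of the 9 members tested, 0 were called, where 0.0857% of 14004 genes were called and 0.0357% were called lower. At an unadjusted p under 0.05 there were 6 members, where 25.8% of all genes were. DESeq2 called 4 members, and 1600 genes in all, 856 of them lower. In 6 members (Klf2, Klf6, Klf7, Klf10, Klf11 and Klf13) both shArid3a libraries lay below every sh-ctrl library, as in 22.2% of genes. The median log2 fold change was -0.70 over the members and -0.02 over all genes.

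Klf7 was at 6.17 and 3.13 CPM in shArid3a, a log2 difference of -1.19 against sh-ctrl (SE 0.32, adjusted p = 0.101, edgeR). Klf6 was at 12.1 and 15.7 CPM (-0.75, SE 0.21, adjusted p = 0.101, edgeR) and Klf10 at 13.2 and 11.5 CPM (-0.70, SE 0.22, adjusted p = 0.115, edgeR). These 3 and Klf13 were the members that DESeq2 called. Klf13 was at 45.9 and 31.1 CPM, with a log2 difference of -0.54 (SE 0.18, adjusted p = 0.121, edgeR). Klf11 was at 2.99 and 0.914 CPM (-1.34, SE 0.56, adjusted p = 0.168, edgeR), and Klf2 at 0.326 and 0.236 CPM (-2.22, SE 0.74, adjusted p = 0.121, edgeR). Klf3, the member that moved most with miR-125b, was at 11.3 and 16.7 CPM, 1 library below and 1 within the sh-ctrl range (-0.44, SE 0.35, adjusted p = 0.457, edgeR). Length moved with this comparison as well: the median log2 fold change was -0.35 among protein-coding genes of 7000 bases or more and 0.33 under 2000 bases. With the length offsets Klf3 was at -0.02 and Klf13 at -0.31, while Klf7 was at -0.95 and Klf10 at -0.74.

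Klf1 differed in the other direction. It was at 55.5 and 36.3 CPM in shArid3a, so that the lower library lay within the sh-ctrl range, and the log2 difference was 0.76 (SE 0.43, adjusted p = 0.288, edgeR). The erythroid markers, whose sum is largely Hbb-bs, were at 240 and 330 CPM in sum against 285 to 560 CPM, with overlapping groups. Of the KLF1 targets listed below, Icam4 was higher with shArid3a (0.98, adjusted p = 0.101, edgeR). Epb41 (-0.51, adjusted p = 0.122, edgeR) and Kel (-0.73, adjusted p = 0.128, edgeR) were lower. The median of the 18 tested was -0.10. Klf16 was at 42.2 and 34.9 CPM (0.16, SE 0.24, adjusted p = 0.696, edgeR), and its sign turned with library totals in place of TMM, to -0.02. That scaling shifts the median of all genes by -0.19 in this comparison and in miR-125b against sh-ctrl.

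**Figure D4:**
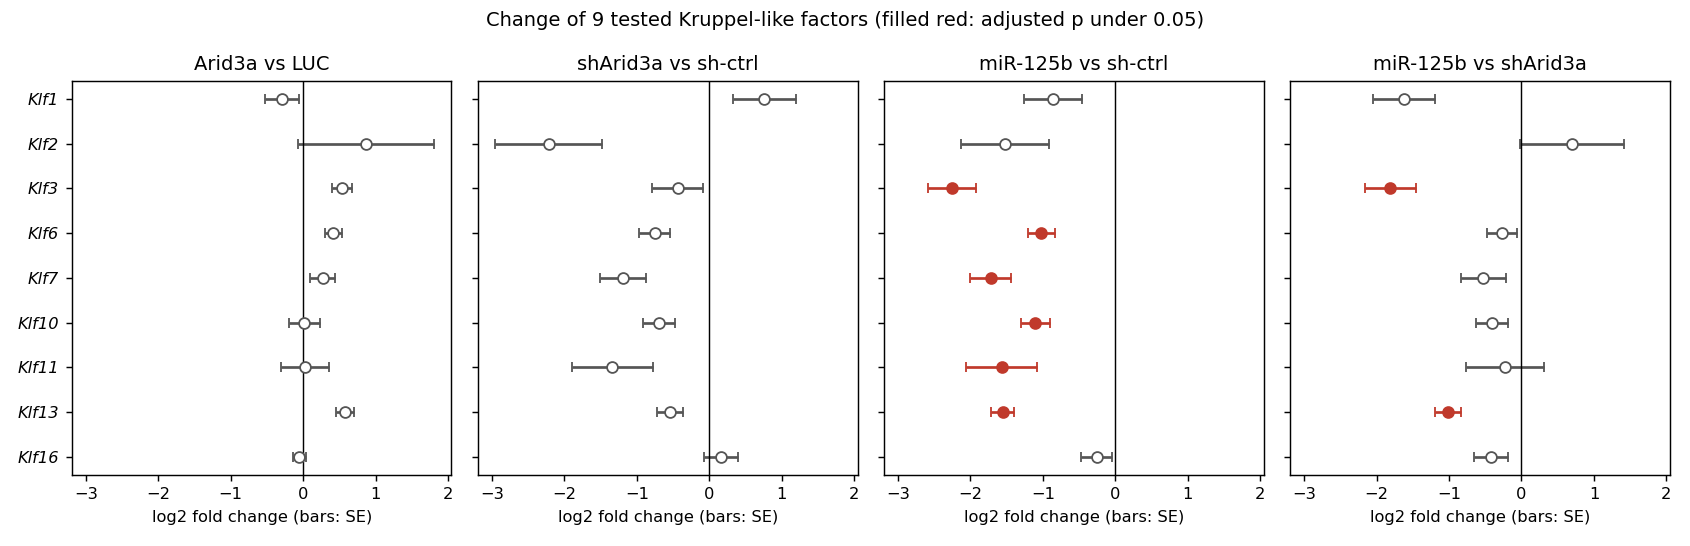
log2 fold change with its standard error (x axis) of the 9 tested members (y axis) in the 4 comparisons; filled red points have an adjusted p under 0.05. With miR-125b, 6 members are called lower against sh-ctrl and 2 (Klf3 and Klf13) against shArid3a, and no member is called in the other pair of comparisons.

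miR-125b and shArid3a were then compared with each other. Klf3 and Klf13 were lower with miR-125b than with shArid3a at an adjusted p under 0.05, 2 of 9 members tested, where 1.35% of genes were called, 0.686% lower and 0.664% higher. Klf13 averaged 19.1 CPM ± 1.55 (SD, n = 3) with miR-125b and 38.5 CPM ± 10.5 (SD, n = 2) with shArid3a, a log2 fold change of -1.02 (SE 0.18, adjusted p = 0.0261, edgeR). Klf3 averaged 3.98 CPM ± 1.31 (SD, n = 3) and 13.9985 CPM ± 3.80 (SD, n = 2), which is -1.81 on the log2 scale (SE 0.35, adjusted p = 0.0383, edgeR). Both calls were lost without miR-125b replicate 2, without miR-125b replicate 3 or without shArid3a replicate 1, and in a fit of these groups alone (adjusted p 0.0615 for Klf3 and 0.0741 for Klf13, edgeR). The Klf3 call was also lost with library totals (0.0594) and without shArid3a replicate 3 (0.139). Both held with the length offsets (adjusted p 0.0289 and 0.0123, edgeR), and in this pair the median log2 fold change of long and short genes differed little, at -0.04 and 0.08.

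Klf1 was lower in all 3 miR-125b libraries than in both shArid3a libraries, a log2 difference of -1.62 (SE 0.43, adjusted p = 0.105, edgeR), and DESeq2 called it (adjusted p = 0.00475). Without the first miR-125b replicate the difference was -2.16 (adjusted p = 0.0215, edgeR). In this comparison Klf1 was called in 3 of 14 alternatives. Klf1, Klf3, Klf10 and Klf13 were the 4 members with no overlap, all lower with miR-125b, as were 15.4% of genes. Klf10 and the remaining members had log2 differences of -0.53 (Klf7), -0.42 (Klf16), -0.41 (Klf10), -0.27 (Klf6) and -0.23 (Klf11), and 0.69 for the scarce Klf2, with adjusted p between 0.429 and 0.901 (edgeR). These do not show that miR-125b and shArid3a act alike on those genes.

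In the libraries labelled Arid3a against LUC, after 48 h, no member was called, and 0% of 13495 genes were. At an unadjusted p under 0.05 there were 2885 genes (21.4%) and 3 members, and DESeq2 called 1359 genes and the same 3 members. Those 3, Klf3, Klf6 and Klf13, were higher in every library labelled Arid3a than in every LUC library, as were 13% of genes. Klf13 was at 54.9, 57.1 and 54.0 CPM in LUC and 67.4, 88.4 and 92.1 CPM in the libraries labelled Arid3a (log2 difference 0.58, SE 0.12, adjusted p = 0.0890, edgeR). Klf3 was at 21.8, 21.7 and 17.9 CPM and 25.3, 31.1 and 32.7 CPM (0.54, SE 0.13, adjusted p = 0.0977, edgeR). Klf6 was at 35.4, 30.9 and 35.3 CPM and 52.3, 42.8 and 40.2 CPM (0.41, SE 0.12, adjusted p = 0.119, edgeR).

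The calls of this comparison turned on the first replicate labelled Arid3a. It was the lowest of its group for Klf3, Klf13 and Klf7 and the highest for Klf6 and Klf10. Without it, 3198 genes were called, where the main fit tested 13495. How many of the 3198 were higher is not given here. The 4 members among them were higher: Klf13 (0.71, adjusted p = 0.000436, edgeR), Klf3 (0.65, adjusted p = 0.00308, edgeR), Klf7 (0.45, adjusted p = 0.0147, edgeR) and Klf6 (0.30, adjusted p = 0.0345, edgeR). Length moved here too, in the opposite direction to the knockdown: genes of 7000 bases or more had a median of 0.23 and genes under 2000 bases of -0.19. With the length offsets Klf13 was at 0.44, Klf6 at 0.40, Klf3 at 0.30 and Klf7 at 0.11, and none was called. Klf1 was at 20.5, 36.2 and 26.3 CPM in LUC and 17.4, 26.4 and 23.7 CPM in the libraries labelled Arid3a, with overlapping groups (-0.30, SE 0.23, adjusted p = 0.500, edgeR). Klf10, Klf11 and Klf16 had log2 differences of 0.02, 0.03 and -0.05, with SE of 0.21, 0.33 and 0.09, and overlapping groups.

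Other genes of the family and its pathways were examined through 5 lists. Their counts with miR-125b against sh-ctrl are to be read against the 12.2% of all tested genes called lower and the 12.1% called higher there. With miR-125b against sh-ctrl, 5 of 9 tested genes among the other KLF and SP factors fell and none rose: Klf9, Sp1, Sp4, Klf5 and Sp7. Klf9, a glucocorticoid-responsive member close to Klf13, averaged 6.69 CPM ± 1.33 (SD, n = 3) against 17.96 CPM ± 0.829 (SD, n = 3), which is -1.42 on the log2 scale (adjusted p = 0.0114, edgeR). Sp1, the general GC-box activator, was at -0.80 (adjusted p = 0.0122, edgeR), and the scarce Sp7 at -3.71 (adjusted p = 0.0249, edgeR). The list's median was -0.80. Klf9 was called in all 15 alternatives, while Sp7 was called in 9 of 13 and Sp4 in 9 of 15.

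Of the co-regulators through which KLFs act, 3 of 11 fell and 2 rose, with a median of -0.04 (all genes 12.2% and 12.1%). The acetyltransferase genes Ep300 and Kat2b fell, by 0.94 (adjusted p = 0.00872, edgeR) and 0.68 (adjusted p = 0.0186, edgeR) on the log2 scale, together with Sin3a, while Sin3b and the deacetylase gene Hdac2 rose (0.45 for Hdac2, adjusted p = 0.0232, edgeR). Sin3a was called in 7 of 15 alternatives, Sin3b and Hdac2 in 9 of 15, Kat2b in 13 of 15 and Ep300 in all 15. Ctbp1 and Ctbp2, the corepressors of KLF3, were not called.

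Among 22 genes known as KLF1 targets, 18 were tested, 6 fell and 1 rose with miR-125b, where 12.2% of all genes fell and 12.1% rose. This list shares 8 genes with the erythroid markers. E2f2, a cell cycle regulator of erythroid maturation, averaged 18.1 CPM ± 5.12 (SD, n = 3) against 66.3 CPM ± 7.06 (SD, n = 3), which is -1.88 on the log2 scale (adjusted p = 0.00332, edgeR). The beta-globin gene Hbb-bs was at -2.21 (adjusted p = 0.0103, edgeR) and Fech, the last enzyme of heme synthesis, at -0.71 (adjusted p = 0.00648, edgeR). Hbb-bt, Epb41 and Ermap also fell and Icam4 rose, and the list's median was -0.60. Ermap was called in 9 of 13 alternatives and Icam4 in 9 of 15. Against shArid3a, 2 of these targets were lower with miR-125b, E2f2 (-1.98, adjusted p = 0.00899, edgeR) and Fech (-0.66, adjusted p = 0.0383, edgeR). With shArid3a against sh-ctrl E2f2 was at 0.11 (adjusted p = 0.823, edgeR) and none of the targets was called, at a median of -0.10.

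In the TGF-beta pathway list, 4 of 16 tested genes fell with miR-125b and none rose, with a median of -0.24, where 24.4% of all genes were called and 12.2% fell. The share called is near that of all genes. Among them were the receptor gene Tgfbr1 (-1.002, adjusted p = 0.00648, edgeR), the signal transducer Smad3 (-0.95, adjusted p = 0.0187, edgeR) and the feedback corepressor Skil (-1.47, adjusted p = 0.00518, edgeR). In the immediate-early and ERK5-MEF2 list, to which Klf2 and Klf4 are linked as MEF2 targets, 4 of 16 fell and none rose, with a median of -0.58, again a share called near the 24.4% of all genes. These were Jun (-1.70, adjusted p = 0.0292, edgeR), Fosb, Mef2c (-0.54, adjusted p = 0.0393, edgeR) and Mef2d (-0.63, adjusted p = 0.0251, edgeR). Fosb was called in 7 of 14 alternatives and the other 3 in 10 of 15 each. With the length offsets Mef2c was at -0.049 (adjusted p = 0.814, edgeR). edgeR called no gene of the 5 lists in shArid3a against sh-ctrl, where 21 of 70 list genes had an unadjusted p under 0.05, as had 25.8% of all genes, and DESeq2 called 15 of them and 1600 genes in all. It called none in the libraries labelled Arid3a against LUC either, where 25 of 68 had an unadjusted p under 0.05, as had 21.4% of all genes, and DESeq2 called 14 of them and 1359 genes in all.

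Across the 14 Gata1s libraries, with each table centred on its own mean, genes like a member in pattern were named for Klf1, Klf10 and Klf13 out of 8783 genes. The points share libraries, depth and group differences, so the correlations are descriptions. Klf13 was most like Traf6 (Pearson r = 0.989), Ppp6r3 (0.983) and Vps37b (0.978). Klf10 was most like Ccdc28a (0.977), Arhgap33 (0.947) and Ankzf1 (0.931). For Klf1, the genes close in pattern included Coq9 (0.914) and Slc11a2 (0.903). Among the members, the closest pairs were Klf7 with Klf13 (0.907) and Klf3 with Klf13 (0.881), and the least alike was Klf1 with Klf6 (0.0458).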

How the data were processed

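The authors deposited 3 tables of raw counts per gene. Per the submitters' processing notes, reads were handled with fastp, HISAT2 (version 2.0.5), featureCounts and mm10, and the strand setting is not given in the sources used here. Gene lengths, in bases, come from the column deposited by the authors in the WT table. The 10 members and the lists were chosen with earlier results of these data known. Tables were joined by Ensembl identifier. Named genes were all members, Arid3a and Gata1, and up to 3 genes of each list with the smallest adjusted p, others being named only as called. A few genes that the rule covers are not reported here.

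edgeR 4.0.16 in R 4.3.3 was used: TMM scaling, filterByExpr, and a quasi-likelihood fit with 1 term per group for each table, all 8 knockdown-table libraries (sh-ctrl, shArid3a, miR-125b) together. Benjamini-Hochberg adjustment ran over all genes tested, and genes under 0.05 were called. Klf4 did not pass the filter, so 9 members were tested. CPM in the comparisons are on the table's TMM scale. The scripts were tested on simulated data. Seed matches used GENCODE M21 annotation.

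Replicate numbers were taken to pair libraries only in miR-125b against sh-ctrl: deviations from group means correlated at 0.151 to 0.427 in the 3 pairs. Between different numbers they correlated at -0.364 to 0.205. The highest of these, miR-125b replicate 2 with sh-ctrl replicate 3, exceeds the 0.151 of the replicate 2 pair, so the pairing is not clear. It comes from the data, and the labels do not say that a number marks a shared source. The main fit does not use it. Alternatives were library totals, other count filters, DESeq2 1.42.0, a robust fit, the replicate block, each library left out, only the compared groups, removal of ribosomal RNA-like genes, and gene length offsets. WT was not tested across tables. Protein sequences were not used here.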

Additional observations from a re-analysis of the deposited data

How the results depend on the processing

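All 5 calls with miR-125b against sh-ctrl other than that of Klf11 held in the 15 alternatives run. There the genes called numbered 3414 and, without 1 library, 734 to 2872 (734 without sh-ctrl replicate 3), and members called 5 to 6. With library totals, 26.6% of called genes were higher, against 49.8% with TMM. In the libraries labelled Arid3a against LUC, where 0 genes were called, DESeq2 called 1359 genes and 3 members, no filter 71 genes, and leaving out 1 library 0 to 3198 genes and 0 to 4 members. For shArid3a against sh-ctrl (12 genes), the counts were 19 with 10 counts in every library, 19 with the robust fit, 20 with library totals (40.0% of them higher, against 58.3%), 1600 with DESeq2 (4 members), 1237 with no filter (1 member), 0 without ribosomal RNA-like genes and 2 to 11 without 1 library. For miR-125b against shArid3a (189 genes), DESeq2 called 737 and no filter 715, and 12 to 329 were called without 1 library. Members called there were 1 with library totals, 0 with only the compared groups and 0 to 3 without 1 library. The cause of these changes was not tested.

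The log2 differences that changed sign were as follows. In Arid3a against LUC, gene length offsets put Klf16 at 0.034 and Mef2c at -0.040. Leaving out 1 library there gave ranges of -0.68 (without Arid3a replicate 1) to 1.36 for Klf2, -0.27 (without Arid3a replicate 1) to 0.14 for Klf10, -0.29 (without Arid3a replicate 2) to 0.27 for Klf11, which was at -0.042 without LUC replicate 1, -0.11 to 0.0093 (without LUC replicate 3) for Klf16, and -0.019 (without Arid3a replicate 3) to 0.21 for Arid3a. In shArid3a against sh-ctrl, library totals put Klf16 at -0.022. In miR-125b against shArid3a, the ranges without 1 library were -0.011 (without miR-125b replicate 2) to 1.012 for Klf2, -0.94 to 0.040 (without shArid3a replicate 1) for Klf7 and -0.85 to 0.86 (without shArid3a replicate 1) for Klf11, which was at 0.086 without miR-125b replicate 3.

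With the replicate block, miR-125b against sh-ctrl gave 3687 genes and 7 members, Klf1 being the added member, and no other member's call changed. In Arid3a against LUC the numbers did not pair the libraries (correlations 0.00840 to 0.365 over 3 pairs). With shArid3a there are only 2 pairs, so pairing is undecided (0.161 to 0.431 with sh-ctrl, 0.200 to 0.237 with miR-125b). In these comparisons the block gave 0 genes for Arid3a against LUC, with Klf10 at -0.026 and Klf11 at -0.032, 15 genes for shArid3a against sh-ctrl and 255 for miR-125b against shArid3a.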
